A study of Mus musculus with 12 samples.

Results

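Genes of the lysosome and of the proton pump that acidifies it were followed across 12 RNA-seq libraries of cultured mouse bone marrow cells. The 39 members were listed by name: 16 subunits or accessory proteins of the vacuolar proton pump (V-ATPase), 8 cathepsins, 6 other lysosomal hydrolases, 4 genes for hydrolase cofactors and lipid transfer, 4 lysosomal membrane proteins and the transcription factor Tfeb. Each was found among the 54532 genes of the table by matching its Ensembl identifier to a mouse symbol.

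The study asked how loss of Chd7, a chromatin remodeler, affects bone and fat formation by mesenchymal stem cells (MSCs). By their labels all libraries came from MSCs of 4-week-old C57BL/6 mice, taken from marrow flushed out of femurs, tibiae and humeri and used at passage 3. The 4 groups of 3 libraries were control and KO-labelled cells in osteogenic medium and control and KO-labelled cells in adipogenic medium, with RNA taken 5 days after induction. Flow cytometry with antibodies to CD29 (Itgb1), CD90.2 (Thy1), CD31 (Pecam1) and CD45 (Ptprc) was used on the cultures, and no sort is stated. The controls are labelled WT and the others KO; the study's methods give the alleles as Chd7 fl/fl for controls and Prx1-cre;Chd7 fl/fl for knockouts, so that both genotypes carry the floxed alleles. The Prx1 promoter drives Cre in early limb mesenchyme, and exon 2 of Chd7 is removed there, while cells of other origins would keep the undeleted gene. Osteogenic medium held β-glycerophosphate (10 mM), dexamethasone (10 nM) and ascorbic acid (50 µM), and adipogenic medium held isobutylmethylxanthine (0.5 µM), dexamethasone (1 µM) and insulin (10 µg/ml). The labels do not say whether the 3 libraries of a group came from separate mice or cultures, so p-values measure only the spread between these samples, which may be technical.

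Values are FPKM as deposited, fragments counted on a gene scaled by its length and by a factor for the library. Relative to the geometric mean library, median ratios were 1.001 to 1.00117, while FPKM sums ran from 295244 to 380097. The deposited values were thus already level by median ratio and not by their sum. Genes were compared with limma on log2(FPKM + 1), a scale that understates the change of low genes, over 12871 genes, those that reached 1 FPKM in 3 or more libraries. A gene is called higher or lower where the p adjusted over all of these genes is below 0.05. All 4 groups shared 1 estimate of the spread of each gene. All 39 members passed the filter. Between 17490393 and 21092438 fragments on genes stood behind each library.

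Chd7 itself was measured first. Its FPKM was 2.64, 2.67 and 2.77 in the control osteogenic libraries, 2.03, 2.35 and 2.28 in the KO-labelled osteogenic ones, 2.26, 1.81 and 2.23 in the control adipogenic ones and 2.03, 2.35 and 2.48 in the KO-labelled adipogenic ones. In osteogenic medium the 3 KO-labelled libraries were below all 3 controls, without passing the test (log2 fold change -0.20, SE 0.0787, limma adjusted p = 0.1604; 0.0474 with only osteogenic libraries fitted, in a range of 0.0474 to 0.313 over 7 alternatives). In adipogenic medium the groups overlapped (log2 fold change 0.09, SE 0.0787, limma adjusted p = 0.428), so Chd7 was not lower there; with each library rescaled to the same sum of FPKM (the TPM scale) it was higher at 0.22 (adjusted p = 0.0471, range 0.0471 to 0.577 over 7 alternatives), and it was 0.02 (adjusted p = 0.870) without control adipogenic library 2, described below. The difference between media was 0.28 (adjusted p = 0.0987). Between media Chd7 was called lower in adipogenic medium in control cells (-0.25, adjusted p = 0.0431), a call lost in each of the 6 fits without 1 of those libraries (adjusted p of 0.0590 to 0.115), and in KO-labelled cells it was 0.03 (adjusted p = 0.816). Exon 2 makes up 1825 of the 13786 exonic bases of Chd7 (13.2%, GENCODE M21 on GRCm38), so the gene total mostly counts exons outside the deletion, and reads by exon were not analysed here. The genotype labels are therefore given below as labels: a direction of the genotype effect is that of libraries labelled KO against control libraries. The study itself reports deletion of Chd7 in MSCs from staining of knockout mice, and genotyping by PCR and a Southern blot. It gives a stop of translation as the result of removing exon 2, which a gene total need not show. It also ran a western blot for CHD7 on MSCs of both genotypes.

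Lysosomes receive cathepsins and other hydrolases that work at low pH, and the V-ATPase supplies that acidity by coupling ATP hydrolysis in its cytosolic V1 sector to proton transport through its membrane V0 sector. TFEB and its relatives MITF and TFE3 bind a short palindromic element in the promoters of many lysosomal genes, and the kinase mTORC1 keeps them out of the nucleus when nutrients are plentiful. In bone marrow, macrophages are rich in lysosomes, and osteoclasts place a V-ATPase with the a3 subunit (Tcirg1) in their outer membrane to dissolve bone mineral.

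The labelled cell type was checked against its markers. Of 10 stromal markers, 8 were tested; Lum stayed at or below 0.113 FPKM in every library, Thy1 (CD90) was between 0.206 and 1.03 and Dcn reached at most 2.82. Itgb1 (CD29) was abundant, between 317 and 412, and Col1a1, the most abundant gene of the list, was between 587 and 1073. Genes of macrophages were among the most abundant in the table. All 18 macrophage markers were tested, and their summed FPKM was 14695, 15208 and 15133 in the control osteogenic libraries, 16511, 16190.1 and 16081 in the KO-labelled osteogenic ones, 20049, 9797 and 19914 in the control adipogenic ones and 9648, 8085 and 8257 in the KO-labelled adipogenic ones. Lyz2, the lysozyme of macrophages, led that list with an FPKM between 3845 and 14412 and made up much of the sum. The sum was higher in KO-labelled than in control osteogenic libraries, while 14 of the 18 markers had a negative log2 fold change there. The cultures are labelled MSCs and their RNA held these macrophage genes at high levels; in such bulk samples fewer cells of a type and less RNA per cell cannot be told apart.

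Of 10 osteoclast markers 6 were tested, and 2 (Ctsk and Atp6v0d2) are also in the hydrolase and V-ATPase lists; Calcr, Oscar, Ocstamp and Dcstamp were below 1 FPKM in every library, and Ctsk was the most abundant of the list. Endothelial markers summed to between 2.55 and 7.63 FPKM, with Cdh5 the most abundant, and 4 of 5 were tested.

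One library stood apart before any member was considered. Over all tested genes, control adipogenic library 2 had a mean Pearson correlation of 0.941 with the other control adipogenic libraries, against 0.981 with the control osteogenic and 0.983 with the KO-labelled osteogenic libraries, while control adipogenic libraries 1 and 3 correlated at 0.989 with each other. These correlations run across genes, which are not independent replicates. KO-labelled adipogenic library 1 was also somewhat apart, with a mean of 0.981 over libraries 2 and 3 of its group, which correlated at 0.992. The cause was not tested. Counts of members and of most gene lists in contrasts that use control adipogenic library 2 are given with and without it, and values of single genes without it where stated. Contrasts share libraries, so their values are set side by side and not counted as separate evidence.

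Member levels spanned Tfeb, with a mean of 4.75 FPKM over the 12 libraries, to the saposin precursor Psap at 3499. Ctsd (2812), Ctsb (2134) and Ctss (1539) came next, and Lamp1 was the most abundant membrane member (767). The 16 pump members lay between 13.4 FPKM for Atp6v1h and 214 for Atp6v1g1. Summed over the 39 members, FPKM was 18632, 18501 and 18886 in the control osteogenic libraries, 16651, 16887 and 16353 in the KO-labelled osteogenic ones, 12146, 14071 and 11466 in the control adipogenic ones and 13428, 13481 and 13544 in the KO-labelled adipogenic ones. The sum was highest in control osteogenic libraries, lower in KO-labelled osteogenic ones and lowest in adipogenic libraries, with control adipogenic library 2 above the other 5 adipogenic ones.

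**Figure D1:**
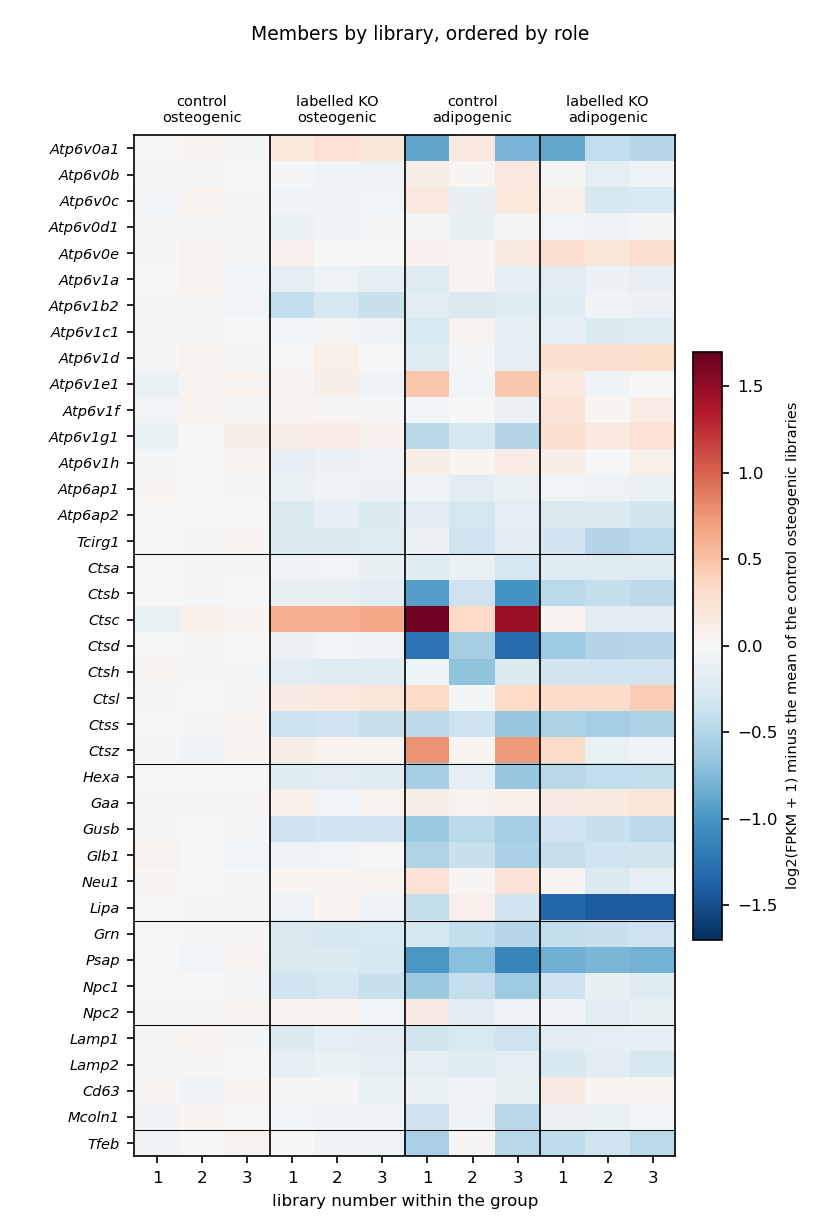
Heat map of 39 members (vertical axis, ordered by role) in 12 libraries (horizontal axis, 3 per group). Colour is log2(FPKM + 1) minus the mean of the 3 control osteogenic libraries, red above and blue below. Lipa is dark blue in all 3 KO-labelled adipogenic libraries, and Ctsc is dark red in control adipogenic libraries 1 and 3, where Ctsd and Psap are blue.

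In osteogenic medium, 8 members were lower in KO-labelled libraries: the pump subunits Atp6v1b2 and Atp6ap2, the protease Ctss, the glucuronidase Gusb, progranulin (Grn), the cholesterol transporter Npc1 and the membrane proteins Lamp1 and Lamp2. The falls were modest, with a ratio of mean FPKM from 0.775 for Atp6v1b2 to 0.8999 for Lamp2. Of all tested genes, 4.15% were called lower and 4.94% called higher in this contrast. By limma 0 members were called higher, and at an unadjusted p under 0.05 the counts were 1 higher and 11 lower. The median log2 fold change was -0.06 over members and -0.01 over all tested genes. In all 8 the groups did not overlap, which was also so in members that were not called, among them Tcirg1, Psap, Ctsc and Atp6v0a1. The share of all genes without overlap was not taken, so separation is no added support. Leaving out 1 library took the count of lower members from 8 to 7 (KO-labelled osteogenic 2), 5 (control osteogenic 1), 4 (control osteogenic 2, control osteogenic 3 or KO-labelled osteogenic 1) and 3 (KO-labelled osteogenic 3), beside 1.75% to 2.13% of all genes. On the TPM scale Atp6v1b2 alone was still called, beside 1.95% of all genes, and with only the 6 osteogenic libraries fitted 14 members were lower and 3 higher, beside 13.5% and 13.03% of all genes.

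In adipogenic medium the members moved both ways. Higher in KO-labelled libraries were the pump subunits Atp6v1g1, Atp6v1d, Atp6v1f and Atp6v0e, the protease Ctsd, Npc1, Gusb, Cd63 and Lamp1, which is 9 of 39. Lower were the acid lipase Lipa, the peptidase Ctsc, the sialidase Neu1 and the pump subunits Tcirg1 and Atp6v0b, which is 5 of 39. Among all tested genes 16.7% were called higher and 16.5% lower. The median was 0.02 over members and -0.01 over all genes. Without control adipogenic library 2, all 14 calls were kept, and 14 members were called higher and 9 lower, beside 24.4% and 26.8% of the 12818 genes then tested. The members gained were Ctsb, Hexa, Glb1, Psap and Mcoln1 (higher) and Atp6v0c, Atp6v1e1, Ctsh and Ctsz (lower). Leaving out any other adipogenic library lowered the count of higher members, to 3 (control 1 or KO-labelled 1), 4 (control 3), 5 (KO-labelled 3) or 6 (KO-labelled 2), and that of lower members to 2 (control 1, control 3, KO-labelled 2 or KO-labelled 3), or raised it to 7 (KO-labelled 1), beside 11.1% to 14.98% and 10.3% to 14.6% of all genes. With only the adipogenic libraries fitted 2 members were higher and 1 lower, beside 7.87% and 5.11% of all genes.

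The scale mattered in adipogenic medium. The TPM scale moved the median of all genes by 0.152 in this contrast, by 0.161 in the difference between media and by -0.106 in the medium contrast of control cells. It took the higher share of all called genes from 50.4% to 78.3% in adipogenic medium, from 53.1% to 75.3% in the difference between media, from 46.1% to 30.7% in the medium contrast of control cells and from 49.7% to 65.4% in that of KO-labelled cells. On the TPM scale 15 members were higher and 2 lower in adipogenic medium, beside 25.3% and 6.99% of all genes. Relative to the median of all genes, the median member differed by 0.03 as deposited and by 0.07 on the TPM scale in adipogenic medium, by 0.14 and 0.18 in the difference between media, and by -0.21 and -0.23 in the medium contrast of control cells.

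**Figure D2:**
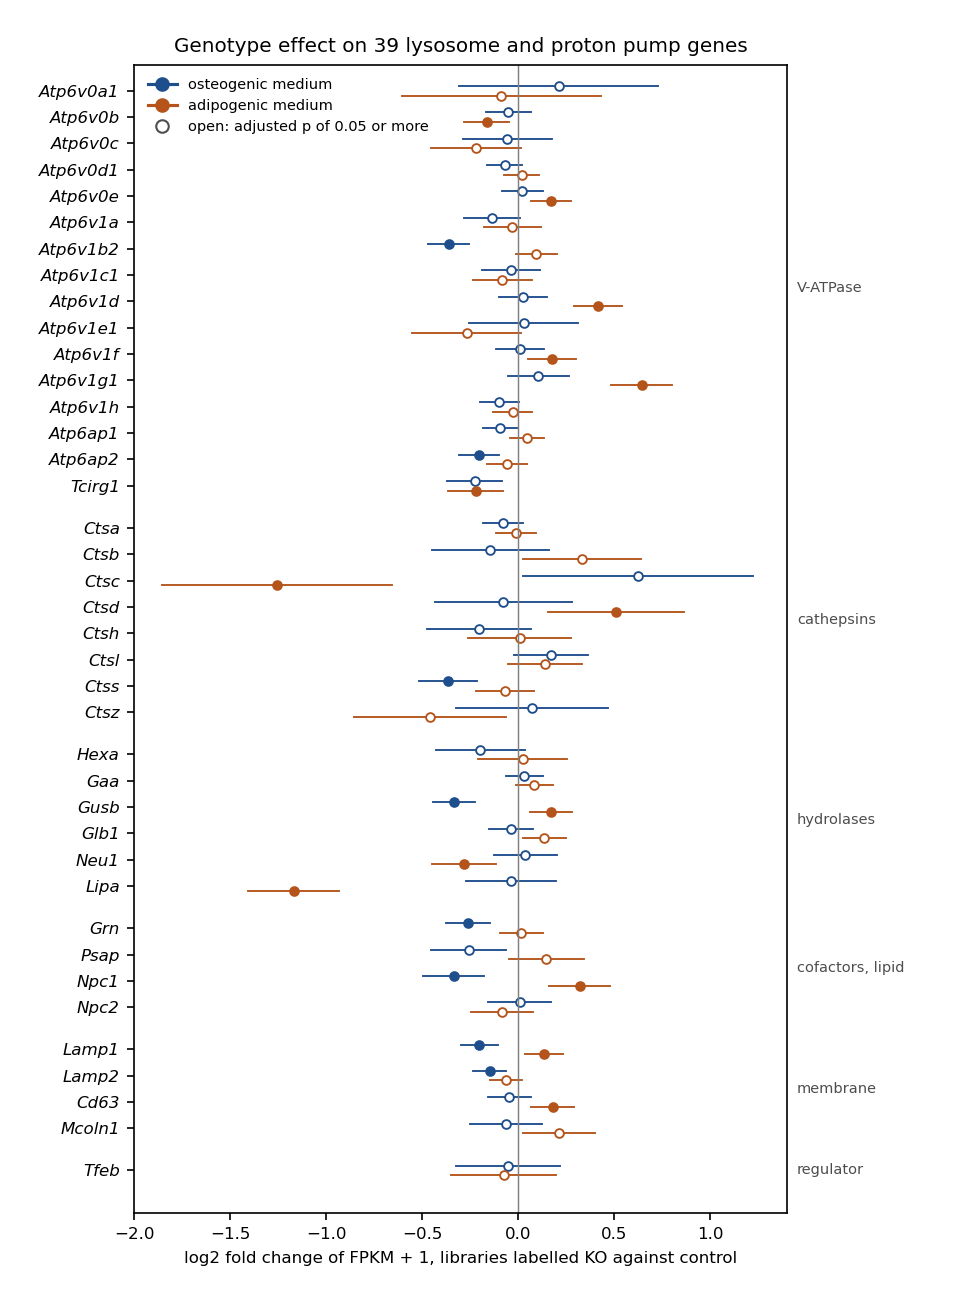
Log2 fold change of FPKM + 1 (horizontal axis) between KO-labelled and control libraries for each of 39 members (vertical axis), in osteogenic medium (blue) and adipogenic medium (orange). Bars are 95% confidence intervals and filled points have an adjusted p below 0.05. Filled blue points lie left of 0, and filled orange points lie on both sides, with Ctsc and Lipa farthest left; Atp6v0b changes sign on the TPM scale.

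The genotype effect itself differed between media for 11 members, tested as the interaction term. For 9 the effect was more positive in adipogenic medium (Npc1, Atp6v1g1, Gusb, Atp6v1b2, Psap, Atp6v1d, Lamp1, Grn and Cd63), and for Lipa and Ctsc it was more negative. Of all tested genes 10.9% were called in the first direction and 9.58% in the other. The median was 0.14 over members and -0.00 over all genes. Npc1, Gusb and Lamp1 were lower in KO-labelled osteogenic libraries and higher in KO-labelled adipogenic ones. Without control adipogenic library 2 the counts were 16 and 6, beside 19.8% and 22.5% of all genes, and the 11 calls were kept; Atp6v1a, Ctsb, Ctsd, Ctss, Hexa, Glb1 and Mcoln1 joined in the first direction and Atp6v1e1, Ctsl, Ctsz and Neu1 in the other. Leaving out any other library gave between 6 and 8 members in the first direction and 2 or 3 in the other, beside 7.11% to 10.5% and 6.44% to 9.01% of all genes.

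Between media, control cells had 18 members lower in adipogenic than in osteogenic medium and 1, Ctsc, higher. The lower ones included Ctsd, Psap, Ctsb, Gusb, Npc1, Ctss, Glb1 and Hexa, with ratios of mean FPKM of 0.500 for Ctsd and 0.524 for Psap. Of all tested genes 12.3% were called lower and 10.5% called higher. The median was -0.20 over members and 0.01 over all genes. Without control adipogenic library 2, the 19 calls were kept and the counts were 25 lower and 5 higher, beside 23.4% and 24.6% of all genes. Atp6v1e1, Ctsl, Ctsz and Neu1 were then also higher, and Atp6v0a1, Atp6v1a, Atp6v1c1, Atp6v1d, Ctsh, Lipa and Tfeb also lower. Leaving out another library gave 14 or 15 lower members beside 6.27% to 7.14% of all genes, and the count of higher ones fell to 0 without control osteogenic 1, control adipogenic 1 or control adipogenic 3. With only these 2 groups fitted, 5 members were lower and 0 higher, beside 2.42% and 1.38% of all genes.

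KO-labelled cells had 5 members higher in adipogenic medium (Atp6v1d, Atp6v1b2, Atp6v0e, Atp6v1h and Gaa) and 5 lower (Lipa, Atp6v0a1, Psap, Glb1 and Tcirg1). Of all tested genes 13.9% were called higher and 14.0% lower. The median of members was -0.06 as deposited and 0.00456 on the TPM scale, so its sign depends on the scale. The count of higher members fell to 3 without KO-labelled osteogenic 2, KO-labelled adipogenic 1 or KO-labelled adipogenic 3. That of lower members fell to 3 without any 1 of the 3 KO-labelled osteogenic libraries or KO-labelled adipogenic 3, beside 9.50% to 11.004% of all genes (9.21% to 11.3% higher), and reached 15 with only the KO-labelled libraries fitted, beside 19.1% of all genes.

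Tfeb, the regulator among the members, did not pass the test in any of the 5 contrasts with all libraries. Its FPKM was 5.29, 5.48 and 5.84 in the control osteogenic libraries, 5.50, 5.21 and 5.17 in the KO-labelled osteogenic ones, 3.47, 5.62 and 3.71 in the control adipogenic ones and 3.83, 4.18 and 3.75 in the KO-labelled adipogenic ones. Of the 6 adipogenic libraries 5 lay below all 6 osteogenic ones, and control adipogenic library 2, at 5.62, lay among the osteogenic ones. The log2 fold change between media in control cells was -0.33 (adjusted p = 0.0753) with all libraries and -0.51 (adjusted p = 6.75e-05) without that library. In KO-labelled cells it was -0.36 (adjusted p = 0.0549). Between genotypes the groups overlapped in both media, with -0.05 (adjusted p = 0.853) in osteogenic and -0.08 (adjusted p = 0.669) in adipogenic medium, the latter 0.07 on the TPM scale and 0.10 without control adipogenic library 2.

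Promoters of the members were searched for the palindrome TCACGTGA, the core of the element that TFEB binds, and for CACGTG, the E-box that lies within it. The windows run from 250 bases before to 50 after each start in RefSeq (GRCm38.p6). RefSeq windows were found for 32 of the 39 members, 40 windows in all; Ctsb, Atp6v1h, Ctsh, Atp6v1g1, Atp6v1b2, Npc1 and Atp6v1c1 were not matched. The 8 bases were in 6 of the 40 member windows (15.0%) and in 320 of all 32851 windows (0.974%). The 6 bases were in 27.5% of member windows and 7.15% of all windows. Both motifs read the same on both strands. The 6 members holding the 8 bases were Ctsd, Mcoln1, Atp6v0e, Atp6v1a, Atp6v0d1 and Ctsa, the last with 2 matches. A match is a description of these letters and was not tested for binding. The windows of the 4 holders with the largest change in adipogenic medium are printed 5′ to 3′ on the strand of the gene, with the palindrome in capitals. They are Ctsd (chr7:142387778-142388077, minus strand), Mcoln1 (chr8:3500269-3500568, plus strand), Atp6v0e (chr17:26676146-26676445, plus strand) and Atp6v1a (chr16:44139210-44139509, minus strand).
Ctsd: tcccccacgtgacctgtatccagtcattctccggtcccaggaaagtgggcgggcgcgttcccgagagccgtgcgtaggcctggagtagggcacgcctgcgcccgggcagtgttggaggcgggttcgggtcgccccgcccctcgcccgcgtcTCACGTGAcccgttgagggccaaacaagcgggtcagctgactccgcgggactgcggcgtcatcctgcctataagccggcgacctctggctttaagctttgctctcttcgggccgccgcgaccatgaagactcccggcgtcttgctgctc
Mcoln1: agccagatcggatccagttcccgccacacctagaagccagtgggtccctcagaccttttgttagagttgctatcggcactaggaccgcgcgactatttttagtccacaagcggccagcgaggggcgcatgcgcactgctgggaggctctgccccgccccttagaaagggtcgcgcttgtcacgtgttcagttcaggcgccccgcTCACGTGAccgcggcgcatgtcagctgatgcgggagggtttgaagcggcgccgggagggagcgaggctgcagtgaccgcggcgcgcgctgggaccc
Atp6v0e: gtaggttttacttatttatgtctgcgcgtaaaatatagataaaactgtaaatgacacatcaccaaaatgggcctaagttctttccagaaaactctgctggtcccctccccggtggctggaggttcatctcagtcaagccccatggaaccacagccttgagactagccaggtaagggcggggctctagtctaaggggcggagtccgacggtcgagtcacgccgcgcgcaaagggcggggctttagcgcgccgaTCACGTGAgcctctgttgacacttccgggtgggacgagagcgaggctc
Atp6v1a: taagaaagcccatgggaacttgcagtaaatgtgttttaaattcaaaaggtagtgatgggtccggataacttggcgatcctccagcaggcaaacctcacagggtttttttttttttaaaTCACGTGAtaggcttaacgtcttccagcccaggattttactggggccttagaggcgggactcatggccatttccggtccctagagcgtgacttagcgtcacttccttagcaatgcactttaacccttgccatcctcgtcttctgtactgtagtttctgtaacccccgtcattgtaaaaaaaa

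The 4 printed holders did not move alike. In adipogenic medium Ctsd and Atp6v0e were called higher in KO-labelled libraries, with values given below, while Mcoln1 (0.21, adjusted p = 0.0801) and Atp6v1a (-0.03, adjusted p = 0.745, 0.15 on the TPM scale) did not pass the test. In Mcoln1, a cation channel of the lysosomal membrane, control adipogenic libraries 1 and 3 were the lowest of the 12, and without control adipogenic library 2 Mcoln1 was called higher. Lipa, Ctsc and Atp6v1d held neither motif in their windows.

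The other genes of the same regulatory circuit, 14 genes of the MiT/TFE factors and mTORC1, were all tested. In osteogenic medium limma called 0 of them in either direction (0 higher and 2 lower at an unadjusted p under 0.05). In adipogenic medium 3 were higher and 3 lower (21.4% each), beside 16.7% and 16.5% of all genes. For this and the later lists, the shares of all genes in each contrast, with and without control adipogenic library 2, are those given above. The lower ones were the TFEB relatives themselves: Mitf (log2 fold change -0.69, SE 0.103, limma adjusted p = 0.000824; -0.82, adjusted p = 1.22e-05 without control adipogenic library 2), Tfec (-0.57, lost without control adipogenic 1 or 3 or KO-labelled adipogenic 3, adjusted p from 0.0503 to 0.0556) and Tfe3 (-0.54, adjusted p = 0.0116). Mitf had 6.10, 6.13 and 6.14 in control osteogenic, 5.65, 6.07 and 5.72 in KO-labelled osteogenic, 8.35, 6.04 and 7.98 in control adipogenic and 4.78, 4.13 and 3.76 in KO-labelled adipogenic libraries, so that KO-labelled adipogenic libraries were the 3 lowest and control adipogenic libraries 1 and 3 the highest. The higher ones were Flcn, Lamtor3 and Rptor, of the nutrient-sensing side, at 0.32, 0.30 and 0.15, the last lost without control adipogenic 1 or 3 or KO-labelled adipogenic 2 or 3 (adjusted p from 0.0557 to 0.1399). In the difference between media 2 were called positive (Flcn and Lamtor3) and 1 negative (Mitf). In control cells 5 were lower in adipogenic medium and 0 higher (2 higher at an unadjusted p under 0.05), led by Rragd, a Rag GTPase, at -1.19 (adjusted p = 0.0118). In KO-labelled cells 1 was higher (Rptor) and 2 lower (Mitf and Rragc), calls lost in 4, 3 and 5 of the 6 fits without 1 library (adjusted p from 0.0510 to 0.109). The counts without control adipogenic library 2 were 6 higher and 3 lower between genotypes in adipogenic medium, 4 positive and 3 negative in the difference between media and 3 higher and 6 lower between media in control cells.

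Among subunits of the V1 sector, the 3 called higher in KO-labelled adipogenic libraries were Atp6v1g1, Atp6v1d and Atp6v1f. Atp6v1g1, a subunit of the outer stalk (ENSMUSG00000039105), had an FPKM of 198, 215 and 230.4 in the control osteogenic libraries, 232, 233 and 225 in the KO-labelled osteogenic ones, 154, 177 and 151 in the control adipogenic ones and 259.8, 239 and 253 in the KO-labelled adipogenic ones. The 3 KO-labelled adipogenic libraries were the highest of all 12 and the 3 control adipogenic ones the lowest, while the osteogenic groups overlapped. The means in adipogenic medium were 250.8 ± 10.5 (SD, n = 3) and 161 ± 14.0 (SD, n = 3), a ratio of 1.56 (log2 fold change 0.64, SE 0.0715, limma adjusted p = 0.000152). The call was kept in every alternative and without each library in turn, and the value was 0.71 (adjusted p = 9.24e-06) without control adipogenic library 2. Its effect in osteogenic medium was 0.10 (adjusted p = 0.442), and the 2 effects differed (log2 fold change 0.54, SE 0.101, limma adjusted p = 0.00499). In control cells it was lower in adipogenic medium (log2 fold change -0.42, SE 0.0715, limma adjusted p = 0.00424).

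Atp6v1d, part of the rotating central shaft, showed a similar order. Its FPKM was 22.6, 24.2 and 22.6 in the control osteogenic libraries, 23.0, 24.6 and 23.0 in the KO-labelled osteogenic ones, 19.8, 22.9 and 20.6 in the control adipogenic ones and 28.0, 28.3 and 28.8 in the KO-labelled adipogenic ones. All 3 KO-labelled adipogenic libraries exceeded every other library. The ratio was 1.35 in adipogenic medium (log2 fold change 0.41, SE 0.0561, limma adjusted p = 0.000494), kept in all 7 alternatives and without each library in turn, and 0.47 (adjusted p = 1.96e-05) without control adipogenic library 2. The effect differed from that in osteogenic medium (log2 fold change 0.39, SE 0.0793, limma adjusted p = 0.00749). KO-labelled cells had more Atp6v1d in adipogenic medium (log2 fold change 0.26, SE 0.0561, limma adjusted p = 0.00693); on the TPM scale that last value was 0.32 with an adjusted p of 0.0602, in a range of 0.00386 to 0.0602 over 7 alternatives. Atp6v1f, next to it in the shaft, was 0.18 (adjusted p = 0.0347) in adipogenic medium, with groups that did not overlap, a call lost without control adipogenic 1 or 3 or KO-labelled adipogenic 1 or 3 (adjusted p from 0.0800 to 0.112).

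Atp6v1b2, the widely expressed B subunit of the ATP-hydrolysing head, fell more in osteogenic medium than Atp6ap2, the other pump gene called lower there. It had 85.9, 85.8 and 81.9 in control osteogenic, 63.1, 68.7 and 64.7 in KO-labelled osteogenic, 73.8, 70.9 and 73.0 in control adipogenic and 73.5, 80.1 and 79.1 in KO-labelled adipogenic libraries. The 3 KO-labelled osteogenic libraries were the lowest of all 12 and the control osteogenic ones the highest, while the adipogenic groups overlapped. The means in osteogenic medium were 65.5 ± 2.89 (SD, n = 3) and 84.6 ± 2.28 (SD, n = 3) (log2 fold change -0.36, SE 0.0479, limma adjusted p = 0.00161), and the call was kept in all 7 alternatives and without each library in turn. The genotype effect differed between media (log2 fold change 0.46, SE 0.0678, limma adjusted p = 0.00143; 0.44, adjusted p = 0.000551 without control adipogenic library 2). The medium effect was -0.22 (adjusted p = 0.0121) in control cells and 0.24 (adjusted p = 0.00457) in KO-labelled cells. Atp6v1h, a regulatory subunit, had 12.9, 13.2 and 13.6 in control osteogenic, 11.9, 12.3 and 12.6 in KO-labelled osteogenic, 14.3, 13.5 and 14.5 in control adipogenic and 14.2, 13.2 and 14.1 in KO-labelled adipogenic libraries. It was higher in adipogenic than in osteogenic medium in KO-labelled cells, where the groups did not overlap (log2 fold change 0.16, SE 0.0454, limma adjusted p = 0.0278), and the call was lost without KO-labelled osteogenic library 1 or 2 or KO-labelled adipogenic library 1 or 3 (adjusted p from 0.0713 to 0.0983). The remaining V1 members Atp6v1a, Atp6v1c1 and Atp6v1e1 were called in none of the 5 contrasts with all libraries.

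In the V0 sector the a subunits form the proton path with the ring. Atp6v0a1, the a1 form, had an FPKM of 56.7, 57.4 and 54.8 in the control osteogenic libraries, 64.1, 67.2 and 64.4 in the KO-labelled osteogenic ones, 29.96, 63.3 and 32.1 in the control adipogenic ones and 30.3, 42.0 and 39.8 in the KO-labelled adipogenic ones. KO-labelled osteogenic libraries were above all others, and 5 of the 6 adipogenic libraries were below all osteogenic ones, while control adipogenic library 2, at 63.3, was not. Atp6v0a1 was lower in adipogenic medium in KO-labelled cells (log2 fold change -0.80, SE 0.233, limma adjusted p = 0.0276). That call was kept only without KO-labelled adipogenic library 2; the adjusted p was 0.0573 to 0.0954 without each other library. In control cells the value was -0.50 (adjusted p = 0.1398) and -0.84 (adjusted p = 0.000188) without control adipogenic library 2. Between genotypes it was 0.21 (adjusted p = 0.663) in osteogenic medium, where the groups did not overlap and the shared spread includes that of the control adipogenic libraries, and 0.21 with an adjusted p of 0.00414 with only osteogenic libraries fitted (range 0.00414 to 0.808 over 7 alternatives). In adipogenic medium it was -0.09 (adjusted p = 0.799), 0.09 on the TPM scale, 0.25 (adjusted p = 0.0895) without control adipogenic library 2 and 0.387 (adjusted p = 0.000109) without KO-labelled adipogenic library 1 as well.

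Tcirg1, the a3 form used by osteoclasts, had 168, 163 and 170.4 in control osteogenic, 143, 141 and 144 in KO-labelled osteogenic, 156, 132 and 147 in control adipogenic and 133, 118 and 122 in KO-labelled adipogenic libraries. KO-labelled libraries were below all controls in osteogenic medium, and in adipogenic medium the groups overlapped through control adipogenic library 2. The values were log2 fold change -0.23, SE 0.0637, limma adjusted p = 0.0524 in osteogenic medium, not called, and log2 fold change -0.22, SE 0.0637, limma adjusted p = 0.0234 in adipogenic medium, called lower. The adipogenic call was lost on the TPM scale (-0.04, adjusted p = 0.727, range 0.0133 to 0.727 over 7 alternatives) and without control library 1 or 3 or KO-labelled library 2 or 3 (adjusted p from 0.0683 to 0.0869), and was -0.29 (adjusted p = 0.00112) without control adipogenic library 2. Between media Tcirg1 was lower in adipogenic medium in both genotypes (-0.20, adjusted p = 0.0444 in control and -0.20, adjusted p = 0.0414 in KO-labelled cells), with adjusted p of up to 0.119 and 0.137 when 1 library was left out. The control call was lost without any 1 control osteogenic library or control adipogenic 3, and the other was kept only without KO-labelled adipogenic library 1. The FPKM of Tcirg1 divided by that of Atp6v0a1 was 2.96, 2.84 and 3.11 in the control osteogenic libraries, 2.22, 2.10 and 2.23 in the KO-labelled osteogenic ones, 5.21, 2.09 and 4.59 in the control adipogenic ones and 4.40, 2.80 and 3.06 in the KO-labelled adipogenic ones.

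Atp6v0e, a small membrane subunit, rose with both comparisons of the KO-labelled adipogenic libraries. It had 43.2, 46.0 and 42.9 in control osteogenic, 46.4, 43.9 and 43.6 in KO-labelled osteogenic, 46.4, 45.3 and 48.9 in control adipogenic and 53.8, 50.8 and 53.9 in KO-labelled adipogenic libraries. KO-labelled adipogenic libraries were the 3 highest of all. It was higher than in control adipogenic libraries (log2 fold change 0.17, SE 0.0476, limma adjusted p = 0.0214), a call lost without control adipogenic 1 or KO-labelled adipogenic 1 or 3 (adjusted p from 0.0595 to 0.0778), and higher than in KO-labelled osteogenic libraries (log2 fold change 0.24, SE 0.0476, limma adjusted p = 0.00457). Atp6v0b, a proteolipid of the ring, had 119.7, 116 and 117 in control osteogenic, 116, 113 and 111 in KO-labelled osteogenic, 126, 119.6 and 132 in control adipogenic and 119, 105 and 112 in KO-labelled adipogenic libraries. The adipogenic groups did not overlap, by a narrow margin, and Atp6v0b was called lower (log2 fold change -0.17, SE 0.0527, limma adjusted p = 0.0356), but the sign turned on the TPM scale (0.02, adjusted p = 0.839, range 0.0355 to 0.839 over 7 alternatives). The call was also lost without control library 1 or 3 or KO-labelled library 2 or 3 (adjusted p from 0.0823 to 0.128). Atp6v0c and Atp6v0d1 were called in no contrast with all libraries. The accessory subunit Atp6ap2, the prorenin receptor, was lower in KO-labelled osteogenic libraries (log2 fold change -0.21, SE 0.0463, limma adjusted p = 0.0220), a call lost without control osteogenic 1, 2 or 3 or KO-labelled osteogenic 1 or 3 (adjusted p from 0.0688 to 0.0943). It was also lower in control cells in adipogenic medium (-0.21, adjusted p = 0.0134), as was Atp6ap1 (-0.13, adjusted p = 0.0421), the latter kept only without control adipogenic 2 (adjusted p of up to 0.128 otherwise).

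Summed over the 16 pump members, FPKM was 1441, 1476 and 1466 in the control osteogenic libraries, 1388, 1415 and 1379.9 in the KO-labelled osteogenic ones, 1332, 1334 and 1333 in the control adipogenic ones and 1432, 1362 and 1388 in the KO-labelled adipogenic ones. By role, 0 pump members were higher and 2 lower in osteogenic medium (0 and 4 at an unadjusted p under 0.05), 4 higher and 2 lower in adipogenic medium, 0 higher and 5 lower between media in control cells and 4 higher and 2 lower in KO-labelled cells; the shares of all genes called are given with each contrast above. Leaving out control adipogenic library 2 gave 4 and 4 in adipogenic medium and 1 and 9 between media in control cells. Of 9 further V-ATPase genes 4 were tested. In adipogenic medium Atp6v0e2 was higher (0.52, adjusted p = 0.0168), a call lost without control adipogenic 1 or 3 or KO-labelled adipogenic 1 (adjusted p from 0.0554 to 0.0612), and Atp6v1g2 was lower (-0.30, adjusted p = 0.0420), a call lost without control adipogenic 1 or 2 or KO-labelled adipogenic 1, 2 or 3 (adjusted p from 0.0736 to 0.102). Atp6v0e2 was also positive in the difference between media (0.87) and higher in adipogenic medium in KO-labelled cells (0.52, lost without KO-labelled osteogenic 1 or 2 or KO-labelled adipogenic 1, adjusted p from 0.0524 to 0.0728). By limma 0 were called in osteogenic medium and between media in control cells (0 higher and 1 lower, and 0 higher and 2 lower, at an unadjusted p under 0.05). Atp6v0d2, the d2 subunit of osteoclasts and macrophages, was singled out after its values were seen and was called in no contrast with all libraries: it had 35.0, 35.9 and 37.6 in control osteogenic, 55.1, 59.5 and 56.4 in KO-labelled osteogenic, 2.11, 36.2 and 2.61 in control adipogenic and 16.3, 30.2 and 29.7 in KO-labelled adipogenic libraries. It was, without control adipogenic library 2, 2.93 (adjusted p = 3.76e-06) in adipogenic medium, 2.28 (adjusted p = 0.000203) in the difference between media and -3.47 (adjusted p = 2.05e-06) between media in control cells, where Atp6v0e2 was then also lower and Atp6v0a2 higher.

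**Figure D3:**
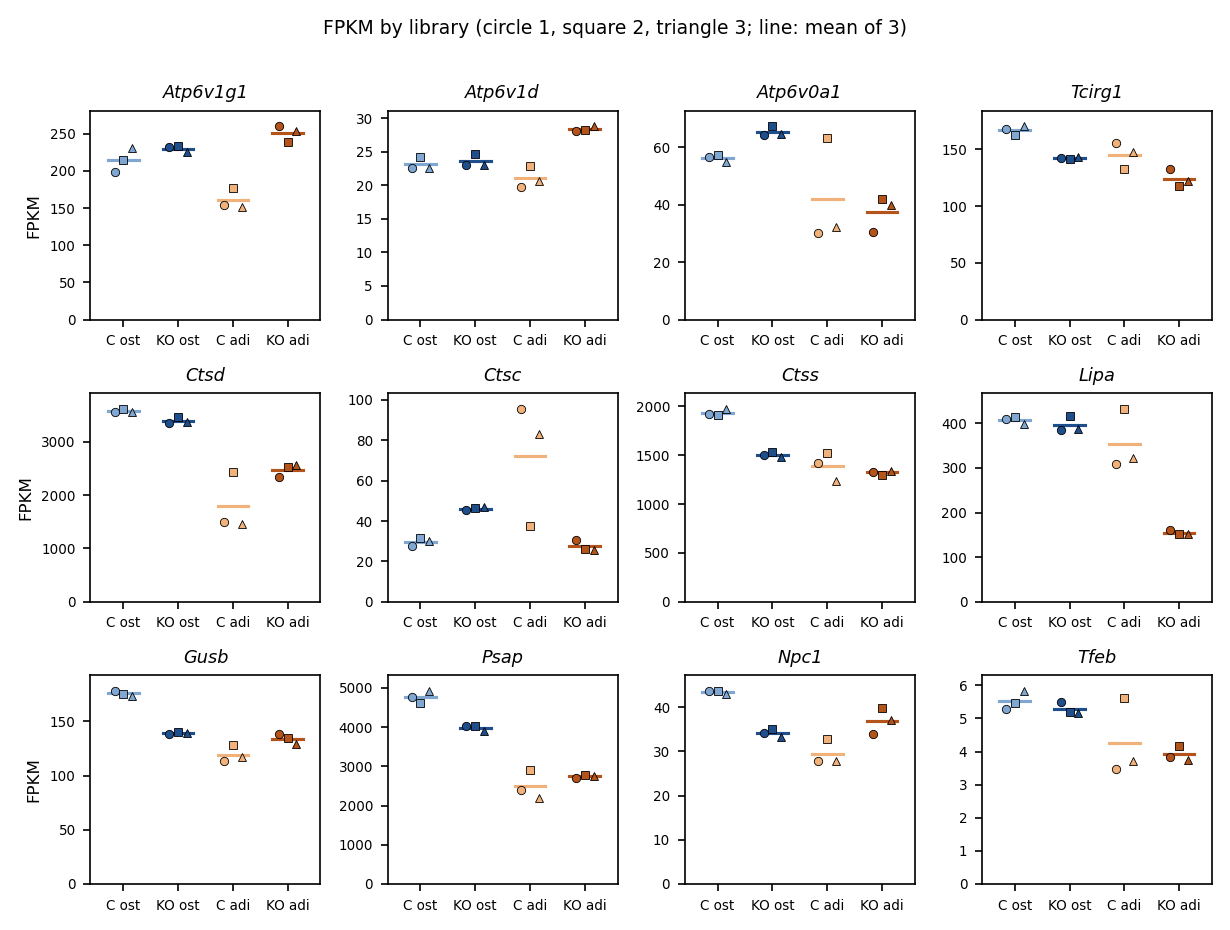
FPKM (vertical axes, each from 0) of 12 members in each library by group (horizontal axis; C, control; KO, labelled KO; ost, osteogenic; adi, adipogenic). Circle, square and triangle are libraries 1, 2 and 3 and the line is their mean. In Atp6v0a1, Ctsd, Ctsc, Lipa and Tfeb the square of the control adipogenic group lies apart from its circle and triangle, and Lipa is lowest in all 3 KO-labelled adipogenic libraries.

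Among the cathepsins, Ctsc showed the widest changes. Ctsc (ENSMUSG00000030560) encodes a dipeptidyl peptidase that activates the granule proteases of immune cells, and its FPKM was 27.4, 31.4 and 30.3 in the control osteogenic libraries, 45.5, 46.2 and 46.8 in the KO-labelled osteogenic ones, 95.7, 37.6 and 83.1 in the control adipogenic ones and 30.8, 26.1 and 25.7 in the KO-labelled adipogenic ones. Control adipogenic libraries 1 and 3 were the highest of the 12, KO-labelled osteogenic libraries were above all control osteogenic ones, and KO-labelled adipogenic libraries were below all control adipogenic ones. The means in adipogenic medium were 27.5 ± 2.84 (SD, n = 3) against 72.1 ± 30.6 (SD, n = 3) (log2 fold change -1.26, SE 0.269, limma adjusted p = 0.00607). In osteogenic medium they were 46.2 ± 0.655 (SD, n = 3) against 29.7 ± 2.08 (SD, n = 3), and the test was not passed (log2 fold change 0.62, SE 0.269, limma adjusted p = 0.196). The shared spread includes that of the control adipogenic libraries, so the missed test does not show that Ctsc was unchanged in osteogenic medium. The effects differed between media (log2 fold change -1.88, SE 0.380, limma adjusted p = 0.00741). The adipogenic call was kept without each library in turn, at -1.66 (adjusted p = 5.73e-07) without control adipogenic library 2, and lost with only adipogenic libraries fitted (adjusted p = 0.0689, range 0.00434 to 0.0689 over 7 alternatives). In control cells Ctsc was higher in adipogenic medium (1.15, adjusted p = 0.0154), a call lost without control osteogenic 1, control adipogenic 1 or control adipogenic 3 (adjusted p from 0.0534 to 0.0617).

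Ctsd, the main aspartic protease of the lysosome, had 3568, 3624 and 3559.6 in control osteogenic, 3349, 3468 and 3364 in KO-labelled osteogenic, 1495, 2430.5 and 1449.7 in control adipogenic and 2339, 2528 and 2566 in KO-labelled adipogenic libraries. All adipogenic libraries were below all osteogenic ones, and within adipogenic medium control libraries 1 and 3 were the lowest, with library 2 among the KO-labelled values. It was called higher in KO-labelled adipogenic libraries (log2 fold change 0.51, SE 0.1597, limma adjusted p = 0.0338; 0.75, adjusted p = 1.38e-06 without control adipogenic library 2). That was the only left-out library that kept the call; the adjusted p was 0.0528 to 0.118 without each other one. In control cells it was lower in adipogenic medium (log2 fold change -1.04, SE 0.1597, limma adjusted p = 0.00248), kept without each library in turn. Ctsb, the most abundant cysteine cathepsin, had 2646, 2600.2 and 2652 in control osteogenic, 2416, 2421 and 2303 in KO-labelled osteogenic, 1381, 2056 and 1298 in control adipogenic and 1908, 1982 and 1940.3 in KO-labelled adipogenic libraries. It was lower in control cells in adipogenic medium (log2 fold change -0.77, SE 0.138, limma adjusted p = 0.00518), and between genotypes in that medium the groups overlapped (0.33, adjusted p = 0.0898; 0.54, adjusted p = 5.65e-06 without control adipogenic library 2).

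Ctss, a cysteine protease that trims the invariant chain of MHC class II, was the cathepsin called in osteogenic medium. It had 1919.6, 1912 and 1978 in control osteogenic, 1497, 1528 and 1481 in KO-labelled osteogenic, 1418, 1521 and 1239.8 in control adipogenic and 1333, 1296 and 1341 in KO-labelled adipogenic libraries. Control osteogenic libraries were the 3 highest of all, with no overlap with the KO-labelled ones, and the adipogenic groups overlapped. The osteogenic means were 1502 ± 23.9 (SD, n = 3) and 1936 ± 36.1 (SD, n = 3) (log2 fold change -0.37, SE 0.0679, limma adjusted p = 0.00898), a call kept without each library in turn and lost on the TPM scale (-0.38, adjusted p = 0.153) and with no filter on low genes, in a range of 0.000404 to 0.165 over 7 alternatives. In control cells it was lower in adipogenic medium (-0.48, adjusted p = 0.00165). Of the other cathepsins, Ctsa was lower in that contrast (-0.20, adjusted p = 0.0155), a call lost without control osteogenic 1 or 2 or control adipogenic 1 or 3 (adjusted p from 0.05005 to 0.0572), and Ctsh, Ctsl and Ctsz were called in none with all libraries. In KO-labelled cells 0 of 8 cathepsins were called between media in either direction by limma, with 0 higher and 4 lower at an unadjusted p under 0.05, beside 13.9% and 14.0% of all genes called. The cathepsin sum was 9162, 9139 and 9225 in the control osteogenic libraries, 8335, 8477 and 8197 in the KO-labelled osteogenic ones, 5783, 7006 and 5417 in the control adipogenic ones and 6730.3, 6761 and 6829 in the KO-labelled adipogenic ones. Their inhibitors Cst3 and Cstb were tested and Cst6 was not. They were called in no contrast (at an unadjusted p under 0.05, 1 lower in osteogenic medium and 1 in each direction between media in control cells); without control adipogenic library 2, Cstb was lower in adipogenic medium, negative in the difference between media and higher between media in control cells, where Cst3 was lower.

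Lipa was the member with the clearest change among the other hydrolases. Lipa (ENSMUSG00000024781) encodes the acid lipase that splits cholesteryl esters and triglycerides taken up into lysosomes. Its FPKM was 409, 414 and 398 in the control osteogenic libraries, 384, 417 and 388 in the KO-labelled osteogenic ones, 308, 433 and 322 in the control adipogenic ones and 160.2, 152 and 153 in the KO-labelled adipogenic ones. The 3 KO-labelled adipogenic libraries were the lowest of all 12 and about level with each other, and the osteogenic groups overlapped. The means were 155 ± 4.43 (SD, n = 3) and 355 ± 68.5 (SD, n = 3) in adipogenic medium, a ratio of 0.438 (log2 fold change -1.17, SE 0.106, limma adjusted p = 4.5e-05; 95% confidence interval -1.41 to -0.93). The call was kept in all 7 alternatives and without each library in turn, with an adjusted p of at most 0.00869, and was -1.02 (adjusted p = 2.4e-07) without control adipogenic library 2. On the TPM scale the value was -0.98. In osteogenic medium it was -0.04 (adjusted p = 0.882), and the effects differed between media (log2 fold change -1.13, SE 0.150, limma adjusted p = 0.000815). Within KO-labelled cells Lipa was lower in adipogenic medium (log2 fold change -1.35, SE 0.106, limma adjusted p = 1.99e-05), and in control cells it was -0.22 (adjusted p = 0.163) with all libraries, where control adipogenic library 2 held the highest value of the 12, and -0.37 (adjusted p = 0.000120) without it.

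Gusb, the β-glucuronidase, had 178, 175 and 174 in control osteogenic, 138, 139.9 and 139 in KO-labelled osteogenic, 113, 128 and 117 in control adipogenic and 139, 135 and 129 in KO-labelled adipogenic libraries. Control osteogenic libraries were the highest and control adipogenic ones the lowest, without overlap between genotypes in either medium. KO-labelled libraries were lower in osteogenic medium (log2 fold change -0.34, SE 0.0488, limma adjusted p = 0.00255) and higher in adipogenic medium (log2 fold change 0.17, SE 0.0488, limma adjusted p = 0.0240), and the difference between media was 0.51 (SE 0.0690, adjusted p = 0.000915). The osteogenic call was kept without each library in turn and lost on the TPM scale (adjusted p = 0.112, range 0.000240 to 0.112 over 7 alternatives). The adipogenic call was lost without control adipogenic 1 or 3 or KO-labelled adipogenic 1 or 2 (adjusted p from 0.0673 to 0.0845) and was 0.22 (adjusted p = 0.000672) without control adipogenic library 2. In control cells Gusb was lower in adipogenic medium (log2 fold change -0.56, SE 0.0488, limma adjusted p = 0.000152).

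Neu1, a sialidase, had 30.3, 29.4 and 29.2 in control osteogenic, 30.2, 30.4 and 30.7 in KO-labelled osteogenic, 35.2, 30.1 and 35.1 in control adipogenic and 30.2, 24.9 and 26.8 in KO-labelled adipogenic libraries. The adipogenic groups overlapped through control library 2 and KO-labelled library 1. It was called lower in KO-labelled adipogenic libraries (log2 fold change -0.28, SE 0.0745, limma adjusted p = 0.0157; -0.36, adjusted p = 0.00115 without control adipogenic library 2), a call lost on the TPM scale (-0.10, adjusted p = 0.302, range 0.00904 to 0.302 over 7 alternatives) and without control library 1 or 3 or KO-labelled library 2 or 3 (adjusted p from 0.0549 to 0.0608). Glb1, the lysosomal β-galactosidase, had 54.5, 52.2 and 50.7 in control osteogenic, 50.0, 50.8 and 52.4 in KO-labelled osteogenic, 36.4, 39.9 and 35.5 in control adipogenic and 39.8, 41.1 and 42.1 in KO-labelled adipogenic libraries. All adipogenic libraries were below all osteogenic ones, and the medium contrast was called in both genotypes (-0.48, adjusted p = 0.000386 in control and -0.31, adjusted p = 0.00163 in KO-labelled cells). Gaa, the acid glucosidase that degrades glycogen, had 57.0, 55.1 and 57.2 in control osteogenic, 59.8, 54.4 and 58.9 in KO-labelled osteogenic, 60.5, 58.7 and 59.9 in control adipogenic and 62.2, 62.6 and 65.0 in KO-labelled adipogenic libraries. It was higher in adipogenic medium in KO-labelled cells (log2 fold change 0.13, SE 0.0435, limma adjusted p = 0.0456), a call kept only without KO-labelled osteogenic library 1 (adjusted p from 0.0691 to 0.169 without each other library). Hexa, which degrades gangliosides, was lower in control cells in adipogenic medium (-0.45, adjusted p = 0.0141), a call lost without control adipogenic 1 (adjusted p = 0.0559).

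A list of 32 further lysosomal hydrolases, all tested, was read beside these. In osteogenic medium 1 was higher (Fuca1, the fucosidase, 0.31, adjusted p = 0.0156, lost without control osteogenic 1 or 2 or KO-labelled osteogenic 1, adjusted p from 0.0613 to 0.0716). The 2 lower ones included Idua (-0.22), a call lost in each of the 6 fits without 1 library. In adipogenic medium 10 were higher and 7 lower, beside 16.7% and 16.5% of all genes. Falls included Hgsnat (log2 fold change -1.01, SE 0.154, limma adjusted p = 0.000952; -1.24, adjusted p = 1.31e-07 without control adipogenic library 2), Galns and Dnase2a (-0.52, adjusted p = 4.4e-05 and -0.39, adjusted p = 0.000720). Rises included Fuca1 and Smpd1 (0.51, adjusted p = 0.000353 and 0.39, adjusted p = 0.00364), and Galc (0.64, lost without control adipogenic 1 or 3 or KO-labelled adipogenic 2 or 3, adjusted p from 0.0655 to 0.0834). Hgsnat, an acetyltransferase of heparan sulfate breakdown, had 95.03, 91.5 and 95.6 in control osteogenic, 115, 118 and 114 in KO-labelled osteogenic, 144, 89.0 and 146 in control adipogenic and 63.6, 56.7 and 62.2 in KO-labelled adipogenic libraries. KO-labelled adipogenic libraries were the 3 lowest and control adipogenic libraries 1 and 3 the highest. In the difference between media 7 were positive and 5 negative. In control cells 18 were lower and 2 higher (Plbd2, 0.29, and Aga, 0.11 and -0.02 on the TPM scale) in adipogenic medium, the falls including Galc and Sgsh (-1.08 and -0.86, the last lost without control osteogenic 1, 2 or 3 or control adipogenic 1 or 3, adjusted p from 0.0672 to 0.103), and in KO-labelled cells 11 were lower and 5 higher, among them Hgsnat, Galns and Gm2a (-0.92, -0.76 and -0.76). Without control adipogenic library 2 there were 19 higher and 9 lower between genotypes in adipogenic medium, 17 positive and 7 negative in the difference between media and 5 higher and 21 lower between media in control cells.

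Of the cofactors and lipid carriers, Npc1 moved in opposite directions in the 2 media. Npc1 is the membrane transporter that passes cholesterol out of the lysosome, and its FPKM was 43.7, 43.5 and 42.9 in the control osteogenic libraries, 34.1, 35.1 and 33.3 in the KO-labelled osteogenic ones, 27.7, 32.8 and 27.8 in the control adipogenic ones and 33.9, 39.8 and 37.1 in the KO-labelled adipogenic ones. Control osteogenic libraries were the 3 highest, and the genotypes did not overlap in either medium. KO-labelled libraries were lower in osteogenic medium (log2 fold change -0.34, SE 0.0714, limma adjusted p = 0.0170) and higher in adipogenic medium (log2 fold change 0.32, SE 0.0714, limma adjusted p = 0.00765), and the difference between media was 0.66 (SE 0.101, adjusted p = 0.00177). The osteogenic call was lost on the TPM scale (adjusted p = 0.177, range 0.000501 to 0.177 over 7 alternatives) and without any 1 control library or KO-labelled library 1 or 3 (adjusted p from 0.053 to 0.0728). The adipogenic call was kept without each library in turn, at 0.40 (adjusted p = 0.000294) without control adipogenic library 2, and lost with only adipogenic libraries fitted (adjusted p = 0.0809, range 0.00530 to 0.0809 over 7 alternatives). In control cells Npc1 was lower in adipogenic medium (-0.55, adjusted p = 0.00109). Its partner Npc2, which binds cholesterol inside the lysosome, was called in no contrast.

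Psap, from which the saposin activators of sphingolipid hydrolases are cut, had 4768, 4609.9 and 4927 in control osteogenic, 4035, 4039 and 3889 in KO-labelled osteogenic, 2392, 2900.0 and 2201 in control adipogenic and 2693, 2789 and 2742 in KO-labelled adipogenic libraries. Values fell in the order control osteogenic, KO-labelled osteogenic, then adipogenic, where the genotypes overlapped. The medium effect was called in control cells (log2 fold change -0.94, SE 0.0877, limma adjusted p = 0.000213) and in KO-labelled cells (log2 fold change -0.54, SE 0.0877, limma adjusted p = 0.00154). The genotype effects of -0.26 (adjusted p = 0.104) in osteogenic and 0.14 (adjusted p = 0.232) in adipogenic medium were not called, and their difference was called (log2 fold change 0.40, SE 0.124, limma adjusted p = 0.0454). That last call was kept only without control adipogenic library 2 (0.51, adjusted p = 0.000209); the adjusted p was 0.0671 to 0.099 without each other library and 0.0435 to 0.492 over 6 alternatives. Grn, progranulin, had 714, 701 and 721 in control osteogenic, 599, 589 and 592 in KO-labelled osteogenic, 580.4, 539 and 506 in control adipogenic and 536, 548 and 557 in KO-labelled adipogenic libraries. Control osteogenic libraries were the 3 highest, without overlap, and the adipogenic groups overlapped. It was lower in KO-labelled osteogenic libraries (log2 fold change -0.26, SE 0.0509, limma adjusted p = 0.0113), a call lost without KO-labelled osteogenic library 3 (adjusted p = 0.0509), on the TPM scale (adjusted p = 0.171) and with the replicate block (adjusted p = 0.0624), in a range of 0.000696 to 0.171 over 7 alternatives. Its difference between media, 0.28 (adjusted p = 0.0229), was lost in 6 of the 12 fits without 1 library (adjusted p from 0.0514 to 0.0603).

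Among the 4 membrane members, Lamp1 and Lamp2, the heavily glycosylated coat proteins of the lysosome, were lower in KO-labelled osteogenic libraries (-0.20, adjusted p = 0.0186 and -0.15, adjusted p = 0.0362). Lamp1 had 846, 884 and 849.6 in control osteogenic, 722, 767 and 751 in KO-labelled osteogenic, 694, 721 and 675 in control adipogenic and 758, 767 and 768 in KO-labelled adipogenic libraries. Groups did not overlap in either medium, and in adipogenic medium KO-labelled libraries were higher (log2 fold change 0.13, SE 0.0439, limma adjusted p = 0.0404), with a difference between media of 0.34 (adjusted p = 0.00460). The osteogenic call of Lamp1 was lost without control osteogenic 2 or 3 or KO-labelled osteogenic 1 or 3 (adjusted p from 0.0551 to 0.0866), and that of Lamp2 in all 6 fits without 1 library (adjusted p of 0.0620 to 0.131). The adipogenic call of Lamp1 was kept only without control adipogenic 2 (0.16, adjusted p = 0.00592), with 0.1205 as the highest adjusted p otherwise. Cd63, a tetraspanin of late endosomes, had 237, 223 and 239 in control osteogenic, 236, 227 and 215 in KO-labelled osteogenic, 215, 224 and 213 in control adipogenic and 256, 241 and 242 in KO-labelled adipogenic libraries. KO-labelled adipogenic libraries were above all control adipogenic ones (log2 fold change 0.18, SE 0.0496, limma adjusted p = 0.0206), a call lost without control library 1 or 3 or KO-labelled library 1 (adjusted p from 0.0586 to 0.0659), and 0.20 (adjusted p = 0.00738) without control adipogenic library 2. In control cells Lamp1, Lamp2 and Mcoln1 were lower in adipogenic medium, at -0.30, -0.18 and -0.29, the last call kept only without control adipogenic 2. The positive difference of Cd63 between media, 0.23 (adjusted p = 0.0465), was lost in 9 of the 12 fits without 1 library (adjusted p of up to 0.1097).

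A list of 23 other lysosomal membrane and sorting genes, all tested, had 3 lower in osteogenic medium: Gnptab, which makes the mannose 6-phosphate tag that sorts hydrolases to lysosomes (-0.37, adjusted p = 0.00213), the channel Tpcn2 (-0.34, adjusted p = 0.00145) and Cln3 (-0.26, lost in 5 of the 6 fits without 1 library, adjusted p from 0.0539 to 0.0718). By limma 0 were higher there, also at an unadjusted p under 0.05. In adipogenic medium 3 were higher (Laptm4b, Ctns and Gnptab, 0.73, 0.71 and 0.26) and 3 lower (M6pr, Laptm5 and Cln3, -0.71, -0.22 and -0.16, the last 0.01 on the TPM scale). The calls of Ctns, M6pr, Laptm5 and Cln3 were each lost in 3 or 4 of the 6 fits without 1 library (adjusted p from 0.0549 to 0.138). Gnptab, like Npc1 and Gusb, was lower in KO-labelled osteogenic and higher in KO-labelled adipogenic libraries, with 43.8, 42.9 and 42.1 in control osteogenic, 31.6, 34.7 and 33.1 in KO-labelled osteogenic, 29.2, 31.5 and 28.6 in control adipogenic and 34.3, 36.8 and 36.5 in KO-labelled adipogenic libraries. The mannose 6-phosphate receptor M6pr had 141, 78.8 and 138 FPKM in control adipogenic and 85.0, 64.5 and 63.8 in KO-labelled adipogenic libraries, with control library 2 close to the KO-labelled values. The difference between media held 4 positive calls (Ctns, Laptm4b, Gnptab and Tpcn2) and 0 negative (8 and 1 at an unadjusted p under 0.05). Between media 14 were lower and 1 higher in control cells and 6 lower and 3 higher in KO-labelled cells. Higher and lower counts without control adipogenic library 2 were 9 and 7 between genotypes in adipogenic medium, 9 and 3 in the difference between media and 3 and 16 between media in control cells.

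Of 13 autophagy genes, all tested, 1 was lower in osteogenic medium (Vps18, -0.18, adjusted p = 0.0440, lost in each of the 6 fits without 1 library). In adipogenic medium 5 were higher and 2 lower, beside 16.7% and 16.5% of all genes. The largest fall was that of Sqstm1, the p62 receptor that carries cargo into autophagosomes, with an FPKM of 164, 157 and 159 in the control osteogenic libraries, 195, 195 and 189.8 in the KO-labelled osteogenic ones, 456, 198 and 459.8 in the control adipogenic ones and 196, 122 and 128 in the KO-labelled adipogenic ones. Control adipogenic libraries 1 and 3 were the highest of the 12, and control library 2 was level with KO-labelled library 1 of that medium (log2 fold change -1.25, SE 0.289, limma adjusted p = 0.00896; -1.65, adjusted p = 2.41e-05 without control adipogenic library 2). Gabarapl1 was also lower (-0.34, adjusted p = 0.000362), and Uvrag, Map1lc3a and Vps11 were among the higher ones (0.32, 0.31 and 0.26). In the difference between media 3 were positive and 2 negative, and between media 1 was higher and 2 lower in control cells and 2 higher and 1 lower in KO-labelled cells. Leaving out control adipogenic library 2 gave 5 higher and 3 lower between genotypes in adipogenic medium, 3 and 3 in the difference between media and 4 and 2 between media in control cells.

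Markers of other cell types moved in the same contrasts. Of all tested genes 16.7% were called higher and 16.5% lower in KO-labelled adipogenic libraries, and 4.94% and 4.15% in KO-labelled osteogenic ones. The shares were 10.9% and 9.58% in the difference between media, 10.5% and 12.3% between media in control cells and 13.9% and 14.0% in KO-labelled cells. Without control adipogenic library 2 they were 24.4% and 26.8% in adipogenic medium, 19.8% and 22.5% in the difference and 24.6% and 23.4% between media in control cells. Of the 18 macrophage markers, 4 were higher and 10 lower in KO-labelled adipogenic libraries, 1 higher and 6 lower in KO-labelled osteogenic ones, 4 and 4 in the difference between media, 2 higher and 7 lower between media in control cells and 1 and 6 in KO-labelled cells. Adgre1 (F4/80) had 215, 209 and 197 in control osteogenic, 187, 198 and 183 in KO-labelled osteogenic, 1171, 227 and 1136 in control adipogenic and 255, 129.6 and 127 in KO-labelled adipogenic libraries. Control adipogenic libraries 1 and 3 stood far above the rest (-2.05, adjusted p = 0.0156 between genotypes in adipogenic medium, lost without control adipogenic 1 or 3 or KO-labelled adipogenic 2 or 3, adjusted p from 0.0559 to 0.0597; -2.83, adjusted p = 1.06e-05 without control adipogenic library 2). The list of 18 was mixed and did not follow Adgre1 as a whole. Between media in control cells 9 log2 fold changes were positive and 9 negative, and between genotypes in adipogenic medium 7 were positive and 11 negative. Of the 6 tested osteoclast markers, Mmp9, Itgb3 and Nfatc1 were lower in KO-labelled adipogenic libraries (-0.79, -0.57 and -0.24), the calls of Mmp9 and Itgb3 being lost in 5 and 2 of the 6 fits without 1 library (adjusted p from 0.0571 to 0.139). By limma 0 were called in osteogenic medium (2 higher and 0 lower at an unadjusted p under 0.05). Of the 8 tested stromal markers, 3 were higher in KO-labelled osteogenic libraries (Col1a2, Itgb1 and Prrx1) and 3 in KO-labelled adipogenic ones (Pdgfrb, Prrx1 and Itgb1), while Dcn was lower in the latter. Between media 6 stromal markers were higher in adipogenic medium in control cells and 5 in KO-labelled cells, and 0 lower in either. Of osteoclast markers 0 were higher there, and 1 was lower in control and 3 in KO-labelled cells. Of the 4 tested endothelial markers, 3 were higher in KO-labelled osteogenic and 2 in KO-labelled adipogenic libraries. In the difference between media, positive and negative calls were 0 and 2 for osteoclast, 2 and 0 for stromal and 0 and 2 for endothelial markers. With control adipogenic library 2 left out they were 1 and 4 for osteoclast, 2 and 3 for stromal and 1 and 2 for endothelial markers. Without control adipogenic library 2 the adipogenic counts (higher and lower) were 6 and 11 for macrophage, 1 and 4 for osteoclast, 4 and 2 for stromal and 3 and 1 for endothelial markers, and macrophage markers had 6 and 10 in the difference between media and 9 and 8 between media in control cells. Osteoclast markers had 2 and 3 in that last contrast. Some of these counts lie near the share of all genes. Without control adipogenic library 2, 25% of the 8 tested stromal markers were positive in the difference between media, beside 19.8%. The part of these markers in the results for the 39 members was not tested.

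**Figure D4:**
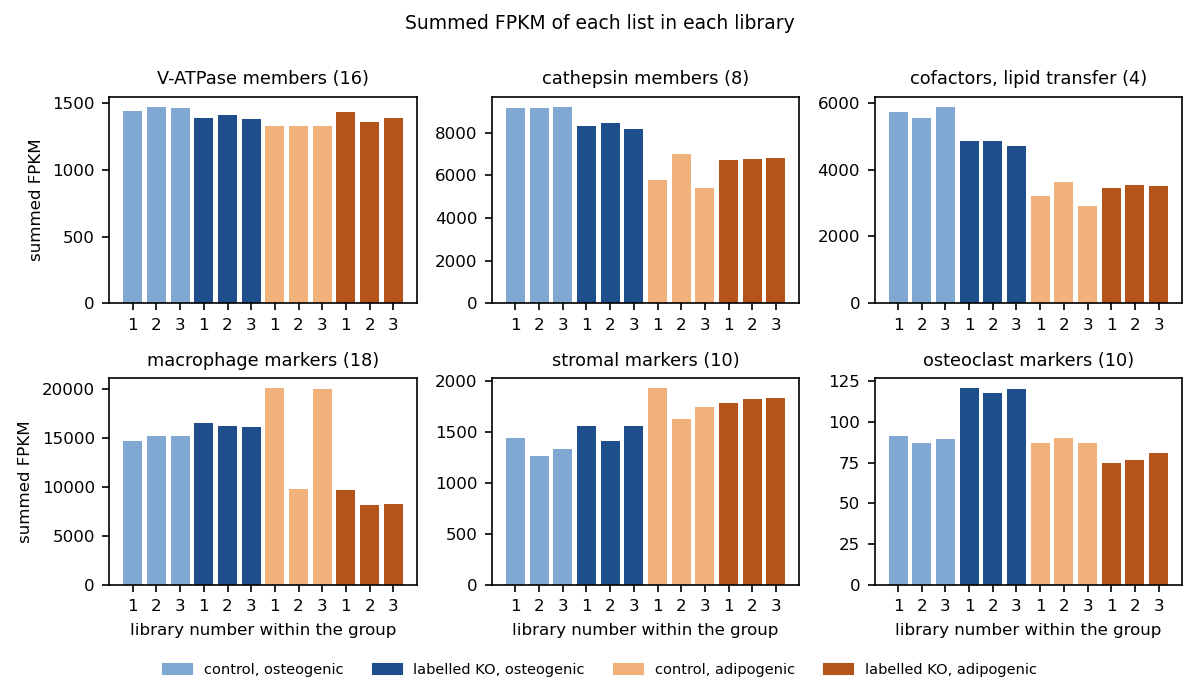
Summed FPKM (vertical axes, each from 0) of 6 gene lists in each of the 12 libraries (horizontal axis, library number within each group; number of genes listed in parentheses). The pump sum stays between 1332 and 1476 FPKM, the cathepsin and cofactor sums are lower in adipogenic libraries, and the macrophage sum is highest in control adipogenic libraries 1 and 3.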

How the data were processed

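Expression was measured by RNA-seq in 12 libraries, 3 for each genotype and medium. The authors deposited FPKM values, which are fragments scaled by gene length and by a factor for each library. These values already had near equal median ratios across libraries. The submitters' processing notes name Bowtie 0.12.2 and the mm9 genome, while the study's reporting summary lists HISAT2 and Ballgown, so the sources disagree on the aligner. Annotation and use of strand are not stated, and several members overlap other genes (Ctsb and Fdft1, Ctsa and Pltp, Npc1 and Rmc1) or have named pseudogenes (2 for Atp6v0c, 1 for Cd63).

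All 12 value columns were matched to samples (0 unmatched). Depth was read back from the values: 98.2% to 98.4% of values under 30 fragments were whole within 0.02, giving 17490393 to 21092438 fragments on genes per library. Members and gene lists were chosen with earlier results of these data known. limma 3.58.1 (R 4.3.3) fitted log2(FPKM + 1) with a trend in the variance over genes that reached 1 FPKM in 3 libraries, and the moderated test was called at an adjusted p of 0.05 (Benjamini-Hochberg over all tested genes). The steps were run on simulated data with the same spread in all groups and no library apart from its group. That run cannot show how the shared spread behaves where 1 library stands apart, as here. Python 3.11.15 with numpy 2.4.6, pandas 2.3.3 and matplotlib 3.10.9 made the other values and the plots. Intervals are 95% confidence intervals.

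Per-library values are given for the 5 called members with the largest change in each direction of each contrast and for Tfeb, Atp6v0a1, Tcirg1 and Chd7. Of the other lists, up to 3 called genes in each direction of each contrast are named, and of marker lists the most abundant gene and the defining markers. Per-library values of Lamp1 and Atp6v0d2 and the naming of the cathepsin inhibitors fall outside this rule and were chosen after their values were seen. Per-library values of the non-members Mitf, Hgsnat, Gnptab, M6pr, Sqstm1 and Adgre1 also fall outside it. Some genes that the rule names are not reported. Alternatives were a pseudocount of 0.1, no filter, the TPM scale, median ratio scaling, no trend, only the libraries compared, a replicate block and each library left out in turn. Median ratios of libraries were 1.001 to 1.00117 as deposited, so that scaling changes next to nothing. The TPM scale replaces that level with equal sums of FPKM. Leaving out 2 adipogenic libraries together was added after seeing the data.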

Additional observations from a re-analysis of the deposited data

Results flagged for a closer look

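For 11 members the genotype effect, as log2 of KO-labelled over control, differed between adipogenic and osteogenic medium by the limma interaction term. The gene total of Chd7, which mostly counts exons outside the deletion, was not lower in the KO-labelled adipogenic libraries. The interaction uses control adipogenic library 2. Of 18 macrophage markers, 4 were positive and 4 negative in this contrast, and 6 and 10 without that library. Of 6 osteoclast markers, 0 were positive and 2 negative, and 1 and 4 without it. The part of these markers in the differences of the members was not tested. Positive differences were 0.66 for the cholesterol transporter Npc1, 0.54 and 0.39 for the pump subunits Atp6v1g1 and Atp6v1d, 0.51 for the glucuronidase Gusb, 0.46 for the pump subunit Atp6v1b2, 0.40 for the saposin precursor Psap, 0.34 for Lamp1, 0.28 for progranulin (Grn) and 0.23 for Cd63. Negative differences were -1.13 for the acid lipase Lipa and -1.88 for the peptidase Ctsc. Without control adipogenic library 2 they were 0.73 for Npc1, 0.61 for Atp6v1g1, 0.45 for Atp6v1d, 0.55 for Gusb, 0.44 for Atp6v1b2, 0.51 for Psap, 0.36 for Lamp1, 0.28 for Grn, 0.25 for Cd63, -0.98 for Lipa and -2.29 for Ctsc, all with an adjusted p below 0.05. With each of the 12 libraries left out in turn, the call of Psap was lost in 11 fits, that of Cd63 in 9 and that of Grn in 6, and the count of positive members ranged from 6 to 16. Of all tested genes 10.9% were called positive and 9.58% negative, and 7.11% to 19.8% positive with 1 library left out.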

How the results depend on the processing

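Alternatives changed 1 choice at a time. Among them, median ratio scaling could change next to nothing, since the deposited values already had near equal median ratios. Calls kept under it add no support. With every library kept or 2 left out, 353 of 420 values of named genes (members and Chd7) kept their direction and side of the threshold, 47 were no longer called, 11 were newly called and 9 turned their sign. With 1 library left out, 312 of 396 did, 69 were no longer called, 2 were newly called and 13 turned.

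Of values that turned, only Atp6v0b in adipogenic medium was called with all libraries (0.0215 on the TPM scale). On that scale Tfeb (0.0690) and Atp6v0a1 (0.0937) in adipogenic medium and Tfeb in the difference between media (0.131) also turned. With 2 libraries left out, Tfeb (0.113) and Atp6v0a1 (0.387) in adipogenic medium and Tfeb (0.167), Atp6v0a1 (0.177) and Tcirg1 (-0.1098) in the difference between media turned, Atp6v0a1 being called both times. With 1 left out, sign-changing ranges were -0.184 to 0.1001 (Tfeb) and -0.281 to 0.247 (Atp6v0a1) in adipogenic medium, -0.1296 to 0.154 (Tfeb), -0.490 to 0.0373 (Atp6v0a1) and -0.0591 to 0.0585 (Tcirg1) in the difference between media and -0.0127 to 0.0886 (Chd7) between media in KO-labelled cells.

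Counts below are members called, with the share of all tested genes in parentheses. With no filter on low genes, 5 members were lower in osteogenic medium (1.20%), 5 higher in adipogenic medium (6.81%), 5 positive in the difference between media (3.66%) and 2 lower between media in KO-labelled cells (5.08%). On the TPM scale, 1 was lower in osteogenic medium (1.95%), 15 were higher (25.3%) and 2 lower (6.99%) in adipogenic medium, with a median of 0.20. The median was 0.34 for the difference between media and -0.33 between media in control cells, and in KO-labelled cells 3 were lower (6.97%) and the median turned to 0.00456. With only the libraries compared, 3 were higher (13.03%) and 14 lower (13.5%) in osteogenic medium, 2 higher (7.87%) and 1 lower (5.11%) in adipogenic medium, 0 higher (1.38%) and 5 lower (2.42%) between media in control cells and 15 lower (19.1%) in KO-labelled cells. With control adipogenic 2 and KO-labelled adipogenic 1 left out together, an alternative chosen after seeing the data, 14 were higher (25.2%) and 10 lower (26.7%) in adipogenic medium, 17 positive (21.6%) and 7 negative (24.1%) in the difference between media (median 0.11), 8 higher (25.8%) between media in control cells and 17 lower (22.5%) in KO-labelled cells (median -0.0809). The causes were not tested.

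With library number as a replicate block, 5 members were lower in osteogenic medium (2.42%), 5 higher in adipogenic medium (14.97%) and 3 higher between media in KO-labelled cells (10.9%). The numbers do not pair libraries: deviations from the group means of same-numbered adipogenic libraries of both genotypes correlated across genes at 0.466, 0.397 and -0.286.

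Leaving out 1 library gave 0 to 0 higher, 3 to 7 lower and a median of -0.0785 to -0.0625 in osteogenic medium. In adipogenic medium it gave 3 to 14 higher, 2 to 9 lower and a median of -0.0116 to 0.0334. For the difference between media the ranges were 6 to 16 positive, 2 to 6 negative and 0.12 to 0.15. In control cells between media they were 0 to 5 higher, 14 to 25 lower and -0.20 to -0.16. In KO-labelled cells they were 3 to 4 higher, 3 to 5 lower and -0.0809 to -0.0332.

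A pseudocount of 0.1 changed none of these counts, and a fit without a trend changed each by at most 2. Median ratio scaling also changed none, which was fixed in advance by the near equal median ratios. Depth limits low genes most: 3 fragments on a gene of 1 kb are 0.143 to 0.185 FPKM.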
